A study of Mus musculus with 3 samples.

Results

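Bihormonal islet cells, which carry the transcripts of both glucagon (Gcg) and pancreatic polypeptide (Ppy), were compared with gamma cells that carry Ppy with little or no Gcg. The cells were chosen by their own hormone content. Of 16162 barcodes, 7490 had at least 500 detected genes and at most 15% of their unique molecular identifiers (UMIs, counts of single captured transcripts) from mitochondrial genes. Of these, 224 were rich in Ppy, with Ppy at 10% or more of UMIs, both insulin genes together under 5%, somatostatin (Sst) under 5% and at least 1000 genes. Gcg was at 10% or more of UMIs in 40 of the 224, called bihormonal here, and under 3% in 174, called Ppy-only. The other 10 lay between and were not compared. The 214 compared cells are 40 bihormonal and 174 Ppy-only cells of 3 mice. A reference class of 1527 alpha cells passed the same filters with Gcg at 10% or more and Ppy under 3%.

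The islets came from 3 non-diabetic female NOD-SCID mice aged 10 to 11 weeks, a strain that lacks mature T and B cells. Each mouse gave 1 library of 3′-end single-cell RNA sequencing in droplets, and the mice form a single group with no treatment in the labels. The comparison therefore lies between cells of the same mice. Bihormonal cells were unevenly spread, with 2 in mouse 1, 1 in mouse 2 and 37 in mouse 3, so that mouse 3 carries the comparison. Ppy-only cells numbered 14, 8 and 152, and alpha reference cells 169, 292 and 1066. The libraries held 32389170 to 57849496 UMIs, and none of the barcodes of the 214 cells occurred in another library.

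Gamma cells are the islet cells that secrete pancreatic polypeptide, and in the mouse they also express its relative peptide YY (Pyy). Alpha cells secrete glucagon, which is cut from proglucagon by the convertase Pcsk2. Both cell types belong to the endocrine lineage of the pancreas, and the Iroquois homeobox factors Irx1 and Irx2 are known from alpha cells.

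The promoters of Gcg and Ppy are shown because these hormone genes define the classes. Gcg spans chr2:62474530-62483650 and Ppy chr11:102099930-102101319, both on the minus strand of GRCm38, and Pyy lies beside Ppy at chr11:102106676-102107832 on the same strand. The 250 bases before each start, from RefSeq on GRCm38.p6, run 5′ to 3′ on the gene's strand, with matches to TATAAA, the TATA box motif, in capitals on either strand. No match overlaps another, and the windows are chr2:62483654-62483903 and chr11:102101320-102101569.
Gcg: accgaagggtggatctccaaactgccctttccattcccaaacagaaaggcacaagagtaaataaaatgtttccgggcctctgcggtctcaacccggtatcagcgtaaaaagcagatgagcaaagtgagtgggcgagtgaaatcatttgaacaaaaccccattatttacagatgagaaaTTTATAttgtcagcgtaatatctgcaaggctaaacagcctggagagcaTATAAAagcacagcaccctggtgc
Ppy: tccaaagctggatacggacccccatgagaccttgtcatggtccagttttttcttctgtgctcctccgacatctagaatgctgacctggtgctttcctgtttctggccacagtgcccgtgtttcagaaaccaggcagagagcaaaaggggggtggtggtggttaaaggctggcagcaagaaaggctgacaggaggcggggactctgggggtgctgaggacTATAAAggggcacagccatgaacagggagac
The Gcg window held 2 matches to TATAAA and the Ppy window 1. TATAAA occurred in 12.4% of 32851 promoter windows of this length, so each match is a description of letters and not of a bound site.

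Bihormonal cells made up 10.5% of Ppy-rich cells in mouse 1 (exact 95% binomial interval 1.30 to 33.1%), 11.1% in mouse 2 (0.281 to 48.3%) and 18.9% in mouse 3 (13.7 to 25.1%). The intervals overlap and cover counting error only. Since Gcg and Ppy chose the cells, the levels that follow are descriptions. In mouse 3 the median bihormonal cell gave 19.8% of its UMIs to Ppy and 18.6% to Gcg. The median Ppy-only cell gave 35.5% to Ppy and 0.212% to Gcg, and the median alpha cell 43.1% to Gcg. The median Gcg share of Ppy-only cells was below the pooled share in endothelial cells of the same library, 0.696% of UMIs, which do not make the hormone. Those cells were shallower, at a median of 4536 UMIs against 22851.5, so the shares are not alike. In UMIs of Gcg, the median Ppy-only cell held 45, and 228 endothelial cells held 7965 together. Single Ppy-only cells of mouse 3 reached 2.55% Gcg. Counted as UMIs, the median bihormonal cell held 6023 of Gcg and 6204 of Ppy, beside 7927.5 of Gcg in alpha cells and 7801.5 of Ppy in Ppy-only cells.

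The gap in Gcg between the classes was thinly filled. The bihormonal cells nearest the limit had 10.0%, 10.6% and 10.7% Gcg, and the highest of the intermediate cells 8.50%, 7.99% and 6.22%. The lowest intermediate cells had 3.05%, 3.61% and 3.76%, and the highest Ppy-only cells 2.73%, 2.55% and 2.49%.

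**Figure D1:**
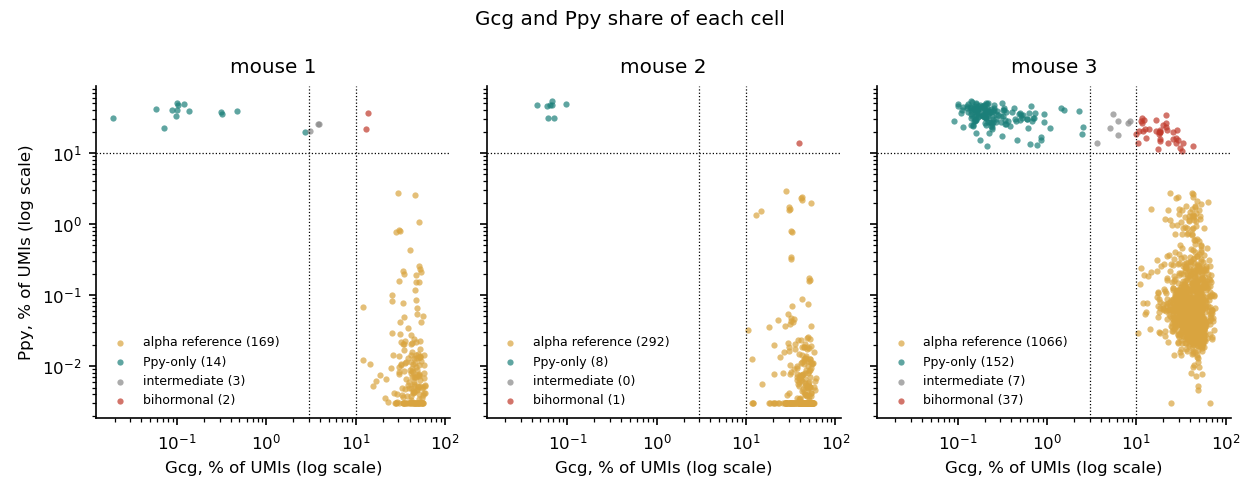
Share of UMIs from Gcg (x axis, log scale) and Ppy (y axis, log scale) in each cell of the 3 mice, 1 point per cell, coloured by class with cell numbers in brackets. Dotted lines are the limits at 3% and 10% Gcg and 10% Ppy, and alpha cells with the lowest Ppy are drawn on the bottom line. Mouse 3 holds 37 of the 40 bihormonal cells, and few cells lie between the Gcg limits.

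Bihormonal cells were deeper than both other classes. In mouse 3 their median was 29542 UMIs, against 22851.5 in Ppy-only and 19312 in alpha cells. Outside the genes that the rule reads, the medians were 15948, 13555 and 10283.5 UMIs, with 3978, 3639 and 3438 detected genes. The ranges overlapped widely, from 2395 to 38592 UMIs outside those genes in bihormonal and 2112 to 26213 in Ppy-only cells. In mice 1 and 2 all 3 bihormonal cells lay above the 90th percentile of UMIs of their library. In mouse 3 only 21 of 37 lay at or below it, a smaller part than 136 of 152 Ppy-only and 971 of 1066 alpha cells. Bihormonal cells thus lay above that limit more often than either other class.

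Doublets, droplets that hold more than 1 cell, were scored with Scrublet. Among the highest-scoring cells of mouse 3 were 4 of 37 bihormonal cells (10.8%, exact 95% interval 3.03 to 25.4%), 7 of 152 Ppy-only cells (4.61%, 1.87 to 9.26%) and 20 of 1066 alpha cells (1.88%, 1.15 to 2.88%). Of all 3640 kept cells of that mouse, 166 (4.56%) were among them, a share set by the rule for the highest scores. In mouse 3 the median bihormonal cell stood at the 77.0th percentile of scores in its library, against 39.6 for Ppy-only and 63.7 for alpha cells. None of the 3 bihormonal cells of mice 1 and 2 was among the highest, and the automatic threshold marked none of the 214 cells. That threshold marked few cells of any kind, 9 of 1145, 9 of 2705 and 13 of 3640 kept cells in mice 1, 2 and 3. Its count therefore says little about 214 cells. Cells with 2 hormones at 10% or more of UMIs each were also counted for every other pair, among the 3025 cells of mouse 3 with at least 1000 genes. Gcg and Ppy met in 37 of 201 cells with Ppy (18.4%), while Gcg and Sst met in 6 of 500 cells with Sst (1.20%) and insulin and Gcg in 7 of 376 cells with insulin (1.86%). Insulin and Ppy met in 1 and Sst and Ppy in 3 of the 201. In mouse 2 the commonest pair was insulin and Gcg, in 70 of 413 cells with Gcg (16.9%). Of its 11 cells with Ppy, Gcg and Ppy met in 1 and Sst and Ppy also in 1. In mouse 1 Gcg and Ppy met in 2, and Sst and Ppy in 1, of 20 cells with Ppy. Whether some bihormonal barcodes are an alpha and a gamma cell in 1 droplet was not tested beyond these values.

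**Figure D2:**
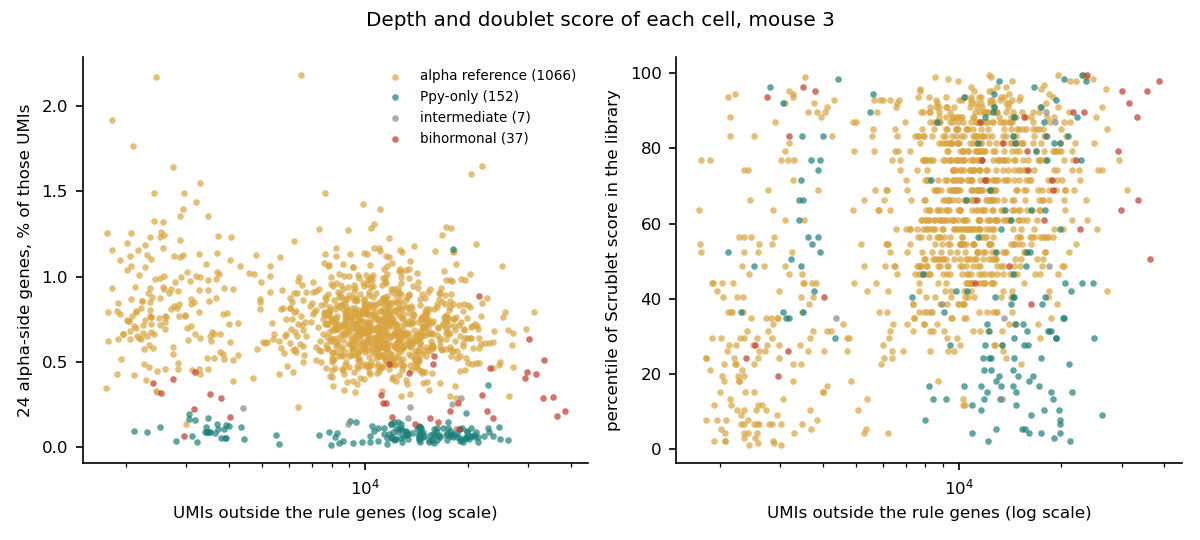
Left, share of UMIs from 24 alpha-side genes (defined with the positions further on) against UMIs outside the genes of the rule (log scale) in mouse 3. Right, percentile of the Scrublet score in the library against the same depth. Each point is a cell. Bihormonal cells reach the highest depths and lie mostly between Ppy-only and alpha cells in the left panel, at low and at high depth.

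Expression outside the genes of the rule was compared in mouse 3. UMIs were summed per class and mouse, and levels are CPM, UMI counts scaled to the same total of UMIs outside Gcg, Ppy, Ins1, Ins2, Sst and the mitochondrial genes. Fewer than 5 bihormonal cells in 2 of the mice left no replicated comparison as designed, so mouse 3 gives ratios with exact 95% intervals for counting error, and mice 1 and 2 stand beside them. Of 2977 genes with at least 50 CPM in the higher class, 68 were at least 2-fold higher in bihormonal cells (2.28%) and 24 at least 2-fold lower (0.806%). The median log2 ratio of all 2977 was 0.18, and scaling by TMM moved every log2 ratio by -0.14, which gave 54 higher and 34 lower. Leaving the abundant Pyy and Ttr out of the sums moved ratios by -0.17 and gave 59 higher and 53 lower. Without the cells of highest Scrublet score, 33 bihormonal and 145 Ppy-only cells remained, 71 genes were higher and 28 lower, and the log2 ratio was 3.89 for Irx1 and 2.35 for Ttr.

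Among 14 alpha cell genes at 50 CPM or more, 7 were at least 2-fold higher in bihormonal cells, among them Ttr, Irx1, Irx2, Slc38a5, Slc7a2 and Gria3, 0 were lower, and the median log2 ratio was 0.91. Genes that go with Gcg between alpha and gamma cells are not independent of a choice by Gcg, so these counts describe the chosen cells.

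The Iroquois homeobox factors Irx1 and Irx2, transcription factors of alpha cells, were at 60.6 and 91.6 CPM in bihormonal cells of mouse 3. They were at 3.50 and 22.5 CPM in Ppy-only and 188 and 182.5 CPM in alpha cells of that mouse. Irx1 had 17.3-fold (7.65 to 45.8) and Irx2 4.07-fold (2.71 to 6.14) more in bihormonal than in Ppy-only cells. In mouse 1 Irx1 was at 75.4 against 9.72 CPM, and the single bihormonal cell of mouse 2 had no Irx1 UMI, where 3 UMIs would be 135 CPM. The groups therefore overlapped for Irx1 and not for Irx2, at 62.9 and 224 CPM in bihormonal and 24.3 and 8.45 CPM in Ppy-only cells of mice 1 and 2.

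Transthyretin (Ttr), a carrier of thyroid hormone and retinol, was the most abundant of these genes. Its level was 7253, 11083 and 18633 CPM in bihormonal, 2601, 3674 and 3807 CPM in Ppy-only and 36452, 44941 and 44541 CPM in alpha cells. These levels, 1 sum per class and mouse, did not overlap between the classes across the 3 mice. In mouse 3 the bihormonal level was 4.89-fold the Ppy-only level (4.76 to 5.04).

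Slc30a8, the zinc transporter of hormone granules, was at 528, 359 and 427 CPM in bihormonal and at 87.5, 0 and 43.5 CPM in Ppy-only cells, a ratio of 9.81-fold in mouse 3 (7.68 to 12.6). Higd1a, a mitochondrial protein induced by low oxygen, was at 151, 314 and 152 CPM against 4.86, 0 and 15.01 CPM, 10.1-fold in mouse 3 (6.68 to 15.8). Both were higher in bihormonal cells of every mouse. Endothelial cells had Higd1a at 92.6 to 127 CPM and Slc30a8 at 20.3 to 31.5 CPM.

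**Figure D3:**
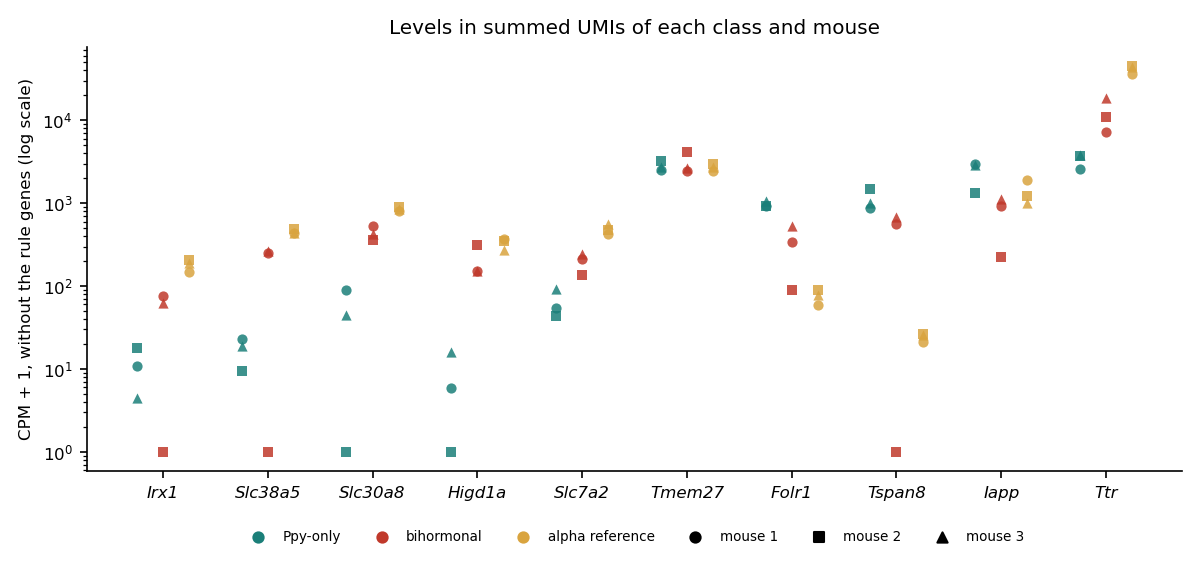
Level of 10 genes as CPM + 1 (log scale) in the summed UMIs of Ppy-only, bihormonal and alpha reference cells, with 1 symbol per mouse. Mouse 2 has 1 bihormonal cell, and symbols at the bottom stand for 0 UMIs. Slc30a8, Higd1a, Slc7a2 and Ttr of the bihormonal cells lie above the Ppy-only cells in all 3 mice, Tmem27 overlaps, and Folr1 and Iapp lie below.

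Amino acid handling genes were listed because alpha cells are known to respond to amino acids. Of 7 at 50 CPM or more, 3 were at least 2-fold higher and 0 lower, with a median log2 ratio of 0.84 and all 7 above 0, where all compared genes had 2.28% higher, 0.806% lower and a median of 0.18. The glutamine transporter gene Slc38a5 was at 251, 0 and 264 CPM in bihormonal against 21.9, 8.45 and 18.0 CPM in Ppy-only cells. The ratio of 14.7-fold in mouse 3 (10.2 to 21.6) rested in part on 1 cell with 44.7% of the UMIs, and was 9.33-fold without the top cells. Slc38a4 was 3.14-fold (2.28 to 4.33) and Slc7a2, which carries cationic amino acids, 2.68-fold (2.15 to 3.33) higher. Slc3a2 and Slc7a8, at 1.79-fold and 1.77-fold, stayed under 2-fold. Slc38a5 and Slc7a2 also belong to the alpha cell genes above, and the 3 higher genes are alpha-side genes (defined further on). This list is therefore not independent of the alpha cell genes or of the choice of cells by Gcg.

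Other genes among the 10 largest ratios were Vgf, a granule peptide precursor, at 8.20-fold (4.33 to 16.4) and Pdk4, a kinase that restrains pyruvate dehydrogenase, at 6.92-fold (4.29 to 11.5). The peptide gene Edn3 was at 6.72-fold (4.30 to 10.7), Aard at 5.15-fold (3.44 to 7.78) and the oxytocin receptor gene Oxtr at 5.09-fold (3.02 to 8.73). Aard had more CPM in bihormonal than in alpha cells of mouse 3, at 106 against 82.0. With TMM scaling it was lower than in alpha cells in mouse 1, at 51.8 against 59.6 CPM. The same held for the 1 bihormonal cell of mouse 2, at 68.8 against 74.4 CPM. Edn3, Higd1a, Oxtr and Pdk4 belong to a list of 9 genes that an earlier analysis found higher in alpha than in beta cells of these libraries. Of its 8 members at 50 CPM, those 4 were 2-fold higher, against 2.28% of all compared genes, the median log2 ratio was 1.61 against 0.18, and the list is no independent evidence of direction. Over 9 alternative settings the lowest log2 ratios were 3.17 for Irx1, 2.67 for Slc38a5, 1.63 for Vgf, 1.78 for Ttr and 1.30 for Irx2, so that their sizes and not their directions depended on the setting.

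Other alpha cell genes stayed within 2-fold of Ppy-only cells in mouse 3. Tmem27, a membrane protein of endocrine cells, was at 2656 CPM in bihormonal, 2765 CPM in Ppy-only and 2768 CPM in alpha cells of mouse 3, a ratio of 0.961 (0.909 to 1.01) to Ppy-only cells. Gc, the vitamin D binding protein, was at 418 CPM in bihormonal, 670 CPM in Ppy-only and 338 CPM in alpha cells, a ratio of 0.624 (0.545 to 0.712) to Ppy-only cells. Pcsk2 was at 4493, 3432 and 6298 CPM in the same order, a ratio of 1.31 (1.25 to 1.37). Pou3f4 and Fap were under 50 CPM in all classes of mouse 3.

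Of the 13 genes of the gamma list, 7 reached 50 CPM in mouse 3. Of these, 1 was at least 2-fold lower in bihormonal than in Ppy-only cells, 0 were higher and the median log2 ratio was -0.63. Against alpha cells, 5 of 7 were at least 2-fold higher in bihormonal cells, with a median of 2.80, beside 22 of 3347 genes so called (0.657%). Peptide YY was at 173290, 202010 and 164950 CPM in bihormonal cells, 268970, 230590 and 272390 CPM in Ppy-only cells and 8879, 10548 and 16051 CPM in alpha cells. In every mouse it stood below Ppy-only and far above alpha cells, and the ratio to Ppy-only cells in mouse 3 was 0.606 (0.602 to 0.610).

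The folate receptor gene Folr1 was at 339, 89.7 and 530 CPM in bihormonal, 936, 929 and 1067 CPM in Ppy-only and 58.4, 87.5 and 76.0 CPM in alpha cells. It was lower than in Ppy-only cells in every mouse, 0.496 times in mouse 3 (0.441 to 0.557). The mouse 2 value comes from 1 cell and lies below 3 UMIs (135 CPM), too few to place it against alpha cells. The log2 ratio of Folr1 in mouse 3, -1.01, ranged from -0.98 to -1.44 over the alternative settings, and so crossed 2-fold. The tetraspanin gene Tspan8 was at 553, 0 and 672 CPM in bihormonal, 868, 1478 and 999 CPM in Ppy-only and 20.04 to 25.6 CPM in alpha cells. Fxyd3, a regulator of the sodium pump, was at 62.1 CPM in bihormonal, 96.1 CPM in Ppy-only and 3.72 CPM in alpha cells of mouse 3. Meis2 and Etv1, transcription factor genes of the gamma list, were at 303 and 575 CPM in bihormonal, 247 and 434 CPM in Ppy-only and 241.5 and 600.1 CPM in alpha cells, so that both were present in all classes. Aqp3 and Abcc9 of the same list had no UMI in bihormonal or Ppy-only cells of mouse 3.

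Only 3 genes lower in bihormonal cells met every criterion for naming (at least 2-fold, an interval clear of 2-fold, and the same direction in mice 1 and 2 together), against 31 that were higher. Amylin (Iapp), a peptide that beta cells release with insulin, was at 918, 224 and 1118 CPM in bihormonal and 2997, 1326 and 2914 CPM in Ppy-only cells, 0.384 times in mouse 3 (0.355 to 0.415). A single cell gave 34.4% of the bihormonal Iapp UMIs. The stress gene Nupr1 and the MHC class II gene H2-Ab1 rested on single cells, which held 51.9% and 83.8% of the Ppy-only UMIs of mouse 3. Without the top cells their log2 ratios were -2.54 and -1.44, and over the alternative settings the smallest were -1.01 and -0.50.

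Endocrine transcription factors shared by islet cells stayed within 2-fold. Of 7 at 50 CPM, 0 were 2-fold higher and 0 lower, with a median log2 ratio of -0.01. Pax6 was at 221 CPM in bihormonal and 223 CPM in Ppy-only cells, a ratio of 0.990 (0.814 to 1.20), and Isl1 at 278 and 258 CPM (1.08, 0.903 to 1.28). Of 14 genes of hormone processing and granules, 1 was higher (Vgf) and 0 lower, with a median of 0.16. Within that list the granin Chga was at 5894, 4139 and 12160 CPM in bihormonal, Ppy-only and alpha cells of mouse 3, while Chgb was at 1320, 2482 and 1164 CPM and Scg2 at 2716, 3689 and 1599 CPM. All 3 granins thus lay between the other classes, in opposite orders.

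To place the bihormonal cells between both types with genes not chosen in mouse 3, genes at least 4-fold apart between alpha and Ppy-only cells in both mouse 1 and mouse 2, with 100 CPM in the higher class, were read in mouse 3. There were 25 such genes on the alpha side and 9 on the gamma side. Position is the difference between bihormonal and Ppy-only CPM as a percent of the difference between alpha and Ppy-only CPM. The genes differ between Gcg-rich and Ppy-rich cells, and the bihormonal cells were chosen for both hormones. A position between the classes is therefore not independent of that choice and describes the chosen cells. On the alpha side 24 of 25 genes lay between both classes, 23 were at least 2-fold above Ppy-only cells, and the median position was 39.0% (quartiles 32.4 to 47.8%). The exception was Apoe, of which 1 cell held 74.4% of the Ppy-only UMIs. On the gamma side all 9 genes lay between, with a median position of 42.4% (36.8 to 57.0%), from Hspb1 at 10.8% to S100a10 at 76.1%. Without the cells above the 90th percentile of UMIs, 21 bihormonal cells remained and the medians were 29.1% on the alpha and 63.9% on the gamma side. Among the alpha-side genes that lay between, Slc38a5 at 59.0% and the kinase gene Wnk3 at 58.3% were nearest to alpha cells, and Spc25 at 14.3% and Dapl1 at 15.6% nearest to Ppy-only cells.

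**Figure D4:**
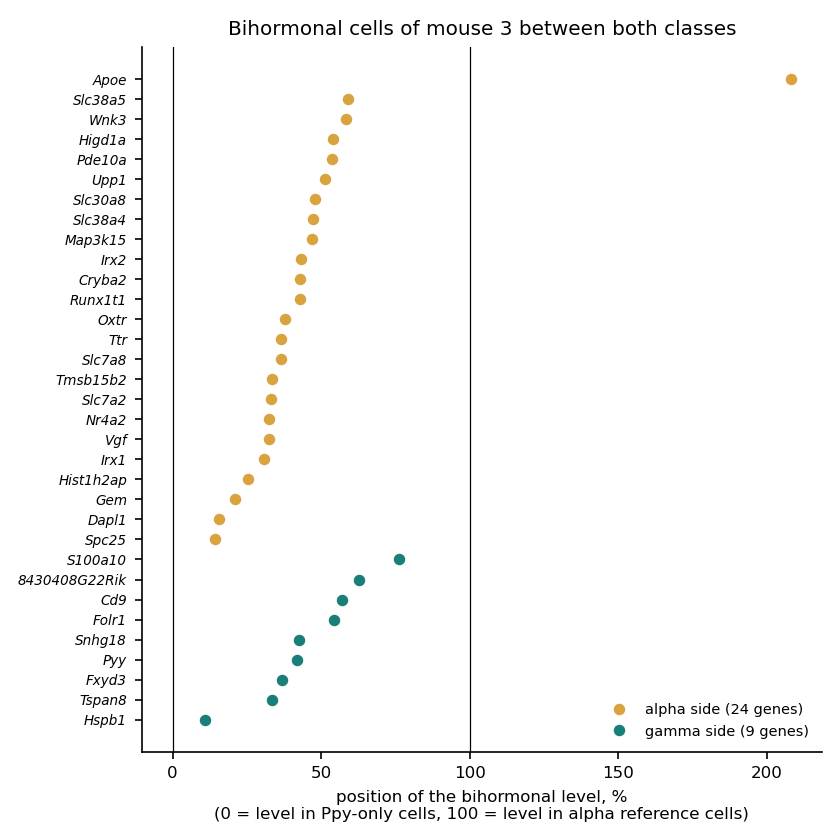
Position of the bihormonal level of each gene in mouse 3, in percent, where 0 is the Ppy-only and 100 the alpha level, for genes of the alpha side and the gamma side chosen in mice 1 and 2, of which 24 and 9 are drawn. All but Apoe lie between 0 and 100.

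Single bihormonal cells also lay between both types, with the same limit from the choice of cells. The 24 alpha-side genes without Ttr took a median of 0.0755% of the UMIs outside the rule's genes in Ppy-only, 0.296% in bihormonal and 0.719% in alpha cells of mouse 3. The 8 gamma-side genes without Pyy took 0.329%, 0.167% and 0.0231%. Of 37 bihormonal cells, 33 lay above the 95th percentile of Ppy-only cells on the alpha side, 26 above the 95th percentile of alpha cells on the gamma side, and 23 above both. Only 7 reached the range from the 5th to the 95th percentile of alpha cells on the alpha side, and 15 lay in that range of Ppy-only cells on the gamma side.

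**Figure D5:**
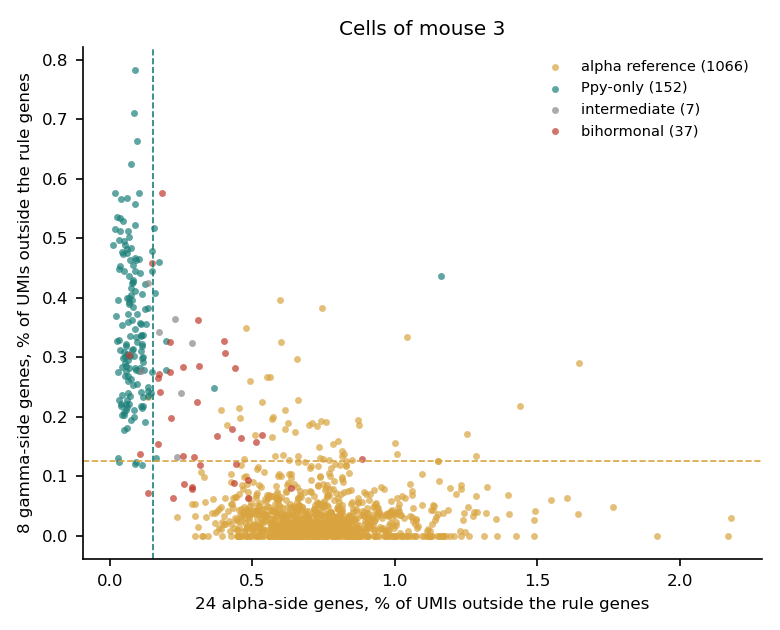
Share of UMIs outside the rule's genes from 24 alpha-side genes (x axis) and 8 gamma-side genes (y axis) in each cell of mouse 3, coloured by class. The dashed lines are the 95th percentiles of Ppy-only cells (vertical) and alpha cells (horizontal), and 23 of 37 bihormonal cells lie above both.

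The classes were also compared at 1 fixed depth, with the alpha-side genes and so with the same limit. With every cell thinned to 3000 UMIs outside the rule's genes, the median number of the 24 alpha-side genes detected in mouse 3 was 2 in 148 Ppy-only, 6 in 33 bihormonal, 11 in 948 alpha and 2 in 196 endothelial cells. At least 5 of them were found in 2.70% of Ppy-only, 81.8% of bihormonal, 99.8% of alpha and 3.06% of endothelial cells, and shallower cells were left out.

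Compared with alpha cells of mouse 3, bihormonal cells had 22 genes at least 2-fold higher (0.657% of 3347) and 92 at least 2-fold lower (2.75%), with a median log2 ratio of -0.16. Of 14 alpha cell genes, 4 were 2-fold lower, among them Ttr, Irx1 and Slc7a2, and 0 higher, with a median of -0.49. The transcription factor gene Neurod1 was 2-fold lower than in alpha cells, at 106 against 240.1 CPM, and was at 89.1 CPM in Ppy-only cells.

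Early-response genes, which are induced when tissue is dissociated, took 2.28% of UMIs in bihormonal, 1.61% in Ppy-only and 2.29% in alpha cells of mouse 3. Of 14, 0 passed 2-fold and all 14 log2 ratios to Ppy-only cells were above 0, with a median of 0.58 against 0.18 for all genes. Fos was at 5502 against 4004 CPM and Junb at 1224 against 624 CPM. Against alpha cells the median was -0.06, and the part of this response in other differences was not tested. Oxidative phosphorylation had 0 of 16 genes past 2-fold and a median of 0.23, protein folding and ER stress 0 of 17 and 0.18, glycolysis 0 of 8 and 0.11, excitability and exocytosis 0 of 10 and -0.04, and antigen presentation 0 of 3 and 0.36. Of 12 endocrine progenitor genes, 3 reached 50 CPM, and Cdkn1a and Runx1t1 of these were 3.34-fold (2.43 to 4.61) and 2.69-fold (1.76 to 4.08) higher. Among all compared genes 2.28% were higher. Runx1t1 is also an alpha-side gene, at 69.9 CPM in bihormonal, 26.0 in Ppy-only and 128 in alpha cells. Against alpha cells the list had a median log2 ratio of -0.83 over 5 genes. Neurog3 and Pax4 had no UMI in bihormonal cells of mouse 3, which allows up to 4.66 CPM. Of 18 receptor genes for islet signals, 5 reached 50 CPM. Gpr119 of these was higher, at 74.5 against 26.5 CPM, and the muscarinic receptor gene Chrm3 lower, at 23.3 against 51.0 CPM.

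Markers of other cell types were summed in each class. Beta cell genes took 0.162% of UMIs in bihormonal and 0.307% in Ppy-only cells of mouse 3, where Slc30a8 was higher and Iapp lower of 3 genes. Delta cell genes took 0.182% and 0.139%, with 1 gene at 50 CPM and 0 past 2-fold. Acinar genes took 0.102% and 0.126% (1 of 8 lower), and 0.516% and 1.83% in mouse 2, and duct genes, which share Tspan8 and Spp1 with the gamma list, 0.202% and 0.246% (0 of 4). Endothelial genes took 0.0107% and 0.0037%, beside 0.00584% in alpha cells, and macrophage genes 0.00745% and 0.0127% (0 of 1), stromal genes 0.00233% and 0.00265% and Schwann cell genes 0.00202% and 0.0043%. No endothelial, stromal, Schwann or cell cycle gene reached 50 CPM, and cell cycle genes took 0.00249% and 0.00475%. The endothelial gene Plvap had 18 UMIs in 3 of 37 bihormonal cells of mouse 3, 77.8% of them in 1 cell, and 2 UMIs in 152 Ppy-only cells. The part of this signal in other differences was not tested.

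All 3 mice were also fitted together, with the sums of every class and mouse, although mouse 1 rests on 2 and mouse 2 on 1 bihormonal cell. With the mouse as a block, edgeR called 68 of 7434 genes higher (0.915%) and 26 lower (0.350%) in bihormonal than in Ppy-only cells at an adjusted p of 0.05, with 555 genes at an unadjusted p under 0.05. Without the block it called 28 and 8, and without mouse 3 it called 8 and 8. By edgeR's quasi-likelihood test with Benjamini-Hochberg adjustment, Higd1a was higher by 3.54 on the log2 scale (adjusted p = 1.0e-26), Slc30a8 by 2.93 (1.1e-24) and Ttr by 1.55 (2.1e-22), each in 3 of 3 mice. Slc38a5 (3.54, 3.5e-32) and Irx1 (3.34, 9.7e-11) were higher in 2 of 3. Folr1 was lower, at -1.49 (2.9e-11), as was Pyy at -0.81 (1.4e-06), both in 3 of 3 mice. Plvap was also called higher (4.81, adjusted p = 3.4e-06), in 2 of 3 mice. Iapp, at -1.71 and lower in 3 of 3 mice, did not pass by edgeR (adjusted p = 0.527), nor did Tspan8 at -1.20 (0.851). Tmem27 was not called either (0.894). Against alpha cells, edgeR called 57 genes higher and 82 lower, and Pyy was higher by 3.92 and Ttr lower at -1.87 in the bihormonal cells. Without mouse 3 the calls against alpha cells were 7 and 10. The planned minimum of 5 cells per class was met in mouse 3 only. Genes that go with Gcg or Ppy between the cell types, Pyy and Ttr among them, are not independent of the choice of cells. Their p values therefore describe the chosen cells.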

How the data were processed

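Each of 3 libraries (10x Genomics 3′ v2, 1 mouse each) was deposited as raw UMI counts per gene and barcode. Per the submitters' processing notes, Cell Ranger 2.2 and mm10 were used, whereas version 3.1.0 stands in the matrix headers. How barcodes were selected before deposit is not given in the sources used here. Of 31053 feature IDs, 31011 matched GENCODE M21 (GRCm38). The sums leave out Gcg, Ppy, Ins1, Ins2, Sst and mitochondrial genes, since these chose the cells. Ratios and shares carry exact 95% intervals, which cover counting error only, since cells are not replicates. The fit over 3 mice with at least 1 cell per class was made with filterByExpr, TMM, glmQLFit and glmQLFTest of edgeR 4.0.16 (R 4.3.3) at a false discovery rate of 0.05, with DESeq2 1.42.0 as an alternative. On simulated data with 200 genes changed 4-fold, the fit recovered 127 (63.5%), and 3.05% of its calls were false. The simulation gave sums of 1 cell the same spread as sums of many cells. It therefore cannot show how the fit behaves with 1 or 2 bihormonal cells. The classes come from the same animals, and deviations of bihormonal and Ppy-only sums of the same mouse correlated at 0.055, 0.103 and 0.241 over 2424 genes. Scrublet in scanpy 1.11.5 (seed 1) gave doublet scores, and the highest were taken at 0.8% per 1000 barcodes. Endothelial cells were kept cells with at least 3 endothelial markers. Named genes are the 10 largest ratios in each direction in mouse 3 (at least 2-fold, 50 CPM in the higher class, interval clear of 2-fold, same direction in mice 1 and 2 together), all alpha and gamma genes and up to 4 leading members of each of 23 lists (302 genes), of which only some are printed or drawn. The members and lists were chosen with earlier results of these data known. The 4-fold rule for positions, the counts of hormone pairs, the TMM and Pyy-Ttr scalings and the alpha-side set were added after gene values had been seen. So were the single genes Wnk3, Spc25, Dapl1, Hspb1, S100a10 and Plvap.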

Additional observations from a re-analysis of the deposited data

How the results depend on the processing

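Counts of genes past 2-fold in mouse 3 moved with the setting, while directions of named genes mostly did not. Against Ppy-only cells, 68 higher and 24 lower became 27 and 13 with the rule's genes in the library sizes, where fewer genes reach 50 CPM, 498 and 218 with thinned cells, 155 and 50 with Gcg at 20% or more, 207 and 90 without cells above the 90th percentile of UMIs, and 1363 and 625 without a CPM minimum. Without Pyy and Ttr, 53 were lower. Against alpha cells, 22 higher and 92 lower became 14 and 19, 180 and 441 when thinned, 60 and 297 below the depth limit, and 3213 and 1196 without a minimum. TMM gave 41 lower, and leaving out Pyy and Ttr 41 higher and 49 lower. For settings that reduce cells or UMIs, the cause was not tested. Below the depth limit the median position was 29.1% on the alpha side and 63.9% on the gamma side, and with thinned cells 59.2% on the gamma side. With Ppy at 20% or more, the bihormonal share was 0% in mouse 2 and 11.0% in mouse 3. Of the log2 ratios of single genes and 3 list medians under 9 alternatives, 304 stayed within the counting interval of the gene (for a median, within 0.5) and 101 did not, and directions changed for Meis2, Peg3, Rbp4, Smarca1 and Tmem27 only, none past 2-fold.

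In the fit of 3 mice, the count without the replicate block fell to 28 higher and 8 lower than Ppy-only, and 35 and 25 than alpha cells. DESeq2 gave 27 and 6, and 26 and 14. Leaving out each mouse gave 8 to 78 higher and 8 to 35 lower than Ppy-only, and 7 to 74 and 10 to 86 than alpha cells. Without mouse 1 it called 39 higher than Ppy-only. The lowest values came without mouse 3, where 3 bihormonal cells remain. Depth limits mice 1 and 2, where 3 UMIs in the bihormonal sum equal 37.7 and 135 CPM.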

Other observations

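The intermediate cells, with Gcg at 3% to 10% of UMIs, numbered 3 in mouse 1 and 7 in mouse 3 and entered no comparison. Their alpha-side genes took a median of 0.377% and 0.228% of UMIs outside the rule's genes, and their gamma-side genes 0.152% and 0.325%. None of the 10 was among the highest Scrublet scores, and the 7 cells of mouse 3 had a median of 23628 UMIs, near the 22851.5 of Ppy-only cells.

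Among Ppy-only cells of mouse 3, 1 cell gave 1.16% of its UMIs outside the rule's genes to the alpha-side genes, above the alpha median of 0.719%, while its class had a 95th percentile of 0.151%. Those genes include Apoe, of which 1 cell held most of the Ppy-only UMIs of mouse 3. Whether both are the same cell was not tested, and the share without Apoe was not computed.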
